A study of Gallus gallus with 9 samples.

Results

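CLDN5 and MYOCD are genes known as markers of the cells that build blood vessels. Both were followed here in hen granulosa cells from the F1 follicle, which is the next to ovulate, at 3 stages of the ovulatory cycle. Their rows were found through the identifiers that the study's transcript table pairs with these symbols, ENSGALG00000001621 for CLDN5 and ENSGALG00000001021 for MYOCD, which are 2 of the 12479 mRNAs in the expression table. The 9 libraries come from 9 Rohman layers aged 210 days and kept under 16 h of light and 8 h of dark, each library from the granulosa cells of 1 hen. Samples were taken at 9:00 (ZT0), at 21:00 (ZT12) and at 5:00 (ZT20, the stage of the LH surge), with 3 hens at each stage, and no treatment is listed for any of them. The labels call every sample granulosa cells, and the study states that these were harvested from the F1 follicle. No sorting step is given, so cells of the neighbouring layers could be present in the samples.

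CLDN5 encodes claudin-5, a membrane protein of tight junctions. Tight junctions seal the space between neighbouring cells, and claudin-5 is best known from the endothelial cells that line blood vessels, where it is needed in the mouse for the barrier between blood and brain. MYOCD encodes myocardin, a coactivator that binds serum response factor (SRF) and with it switches on the contractile genes of smooth muscle and heart muscle. In the avian follicle the granulosa layer has no vessels of its own, and the capillaries and smooth muscle lie in the theca, on the other side of the basement membrane. Each marker can also be made by other cells, so its level alone names no cell type.

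In the transcript table, on the Gallus_gallus 6.0 assembly, CLDN5 is a gene of 1 exon on chromosome 15, from position 701150 to 702907. MYOCD has 12 exons and spans chromosome 18 from 832279 to 865063.

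CLDN5 mRNA was highest at ZT0, lower at ZT12 and lowest at ZT20, and no library of a later stage reached the deposited level of any library of an earlier one. Levels are given in TPM, each transcript's share of all transcripts in a library, a scale corrected for transcript length. At ZT0 the 3 libraries had 42.3, 24.5 and 74.5 TPM of CLDN5. At ZT12 they had 14.2, 14.6 and 19.3 TPM, and at ZT20 4.16, 5.02 and 5.15 TPM. The ZT0 mean of CLDN5 was 47.1 ± 25.3 TPM (SD, n = 3). The mean was 16.0 ± 2.83 TPM (SD, n = 3) by ZT12, and 4.78 ± 0.540 TPM (SD, n = 3) by ZT20. The ZT0 hens differed most among themselves: their highest level was 3.04 times their lowest, against 1.36 times at ZT12 and 1.24 times at ZT20.

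MYOCD mRNA was scarcer than CLDN5 mRNA in every library and lay below 1 TPM in 8 of the 9. Its levels at ZT0 were 0.598, 0.411 and 2.99 TPM, so that replicate 3 stood well above the other 2. At ZT12 they were 0.142, 0.0195 and 0.167 TPM. At ZT20 they were 0.0207, 0.0249 and, in replicate 3, listed at 0. All ZT0 libraries lay above all libraries of the later stages, while ZT12 replicate 2, at 0.0195 TPM, lay within the range of ZT20.

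**Figure D1:**
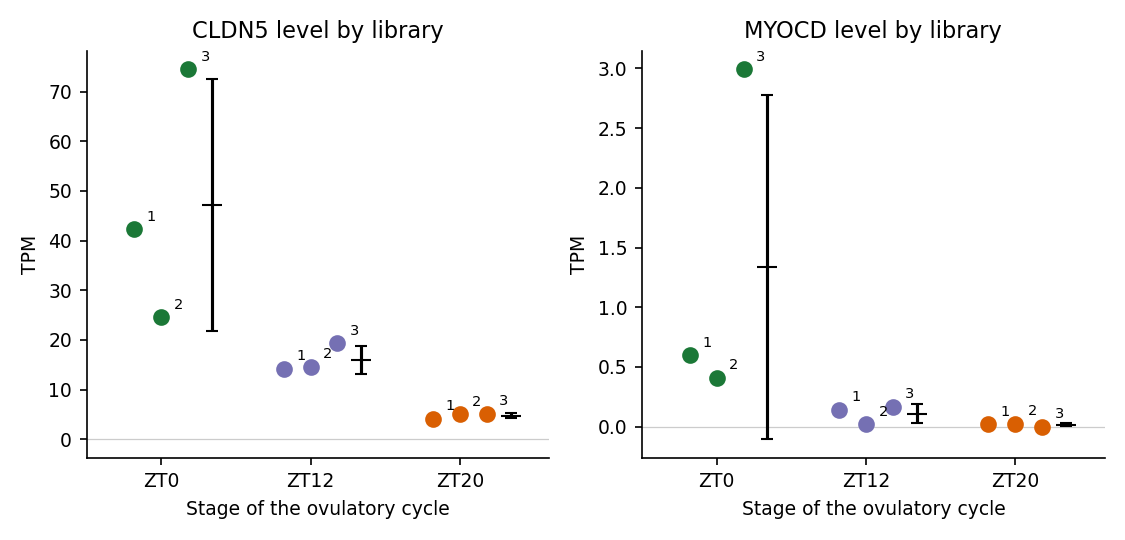
Level of CLDN5 (left) and MYOCD (right) in TPM on linear axes, with 1 point for each library, numbered by replicate and coloured by stage, and the mean with its SD (n = 3) as a bar at the right of each stage. The ZT0 points of CLDN5, from 24.5 to 74.5 TPM, lie above all ZT12 points, which lie above all ZT20 points, and ZT0 replicate 3 is the highest point in both panels.

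The place of the genes among all mRNAs of the same library, which does not depend on how the libraries are scaled, moved the same way. CLDN5 was above 77.5%, 64.1% and 86.4% of mRNAs in the ZT0 libraries. It was above 55.0%, 56.4% and 66.2% at ZT12, and above 32.9%, 33.8% and 36.6% at ZT20. CLDN5 therefore went from the upper part of the distribution to below its middle, with the highest ZT12 library just above the lowest ZT0 library. MYOCD was above 11.9%, 8.32% and 24.3% of mRNAs at ZT0, above 5.06%, 2.08% and 7.44% at ZT12, and above 1.32%, 1.43% and 0% at ZT20. It thus lay in the lower part of the distribution in every library, at or below 11.9% in all but ZT0 replicate 3.

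**Figure D2:**
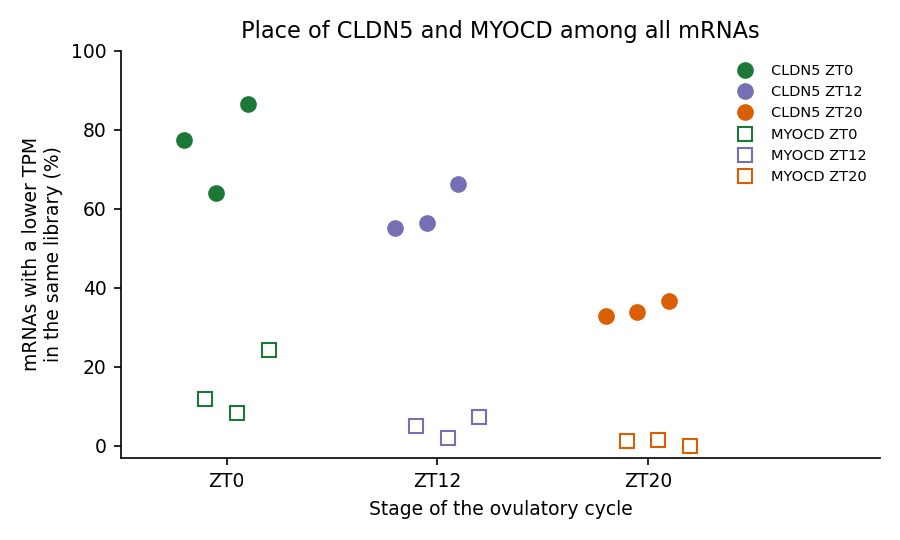
Share of the 12479 mRNAs with a lower TPM than CLDN5 (filled circles) or MYOCD (open squares) in the same library, in percent, with 1 point for each library in order of replicate. CLDN5 lies between 64.1% and 86.4% at ZT0 and between 32.9% and 36.6% at ZT20, and MYOCD lies at or below 24.3% throughout.

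Stages were compared by a limma fit of log2(TPM + 1) over 12472 mRNAs above 0.1 TPM in at least 1 library. A gene was called where the absolute log2 fold change was above 1 and the Benjamini-Hochberg adjusted p was under 0.05. On this scale a fold change understates the change of a scarce gene such as MYOCD. The 3 comparisons share libraries and are not independent of each other. They also share 1 estimate of the spread of each gene, although the spread was unequal. The log2 SD at ZT0, ZT12 and ZT20 was 0.78, 0.23 and 0.14 for CLDN5 and 0.82, 0.10 and 0.02 for MYOCD. The intervals for ZT20 against ZT12 thus mostly reflect the spread at ZT0. In RNA from a whole cell layer, fewer cells of a type and less RNA per cell cannot be told apart.

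From ZT0 to ZT12, before the LH surge, CLDN5 fell by 1.37 on the log2 scale (SE 0.325, 95% interval −2.10 to −0.65, adjusted p = 0.0262), with a mean TPM 2.94-fold lower. In this comparison 3.32% of all mRNAs were called lower, and 41.6% had all ZT12 libraries below all ZT0 libraries, as CLDN5 and MYOCD had. MYOCD differed by −0.91 (SE 0.318, 95% interval −1.62 to −0.20, adjusted p = 0.0726) and was not called. The median mRNA differed by −0.28, and relative to it CLDN5 differed by −1.09 and MYOCD by −0.63. The CLDN5 call was lost when libraries were rescaled by their median ratio (−1.04, adjusted p = 0.101) or by quantiles (−1.08, adjusted p = 0.108), with only the 6 libraries compared (adjusted p = 0.0531) and with the GC content of the reads as a covariate (−1.45, adjusted p = 0.209). It was also lost without ZT0 replicate 3 (−0.98, adjusted p = 0.0665) and, with a difference of similar size, without ZT12 replicate 1 (−1.30, adjusted p = 0.0583), replicate 2 (−1.31, adjusted p = 0.0751) or replicate 3 (−1.50, adjusted p = 0.0533).

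From ZT12 to ZT20, the step that holds the LH surge, CLDN5 fell by 1.55 on the log2 scale (SE 0.325, 95% interval −2.28 to −0.83, adjusted p = 0.00248), and its mean TPM was 3.36-fold lower. Calls were common at this step: 11.7% of all mRNAs were called lower, and 26.8% had all ZT20 libraries below all ZT12 libraries. The median mRNA differed by 0.08, and 6.45% of mRNAs had a lower fold change than CLDN5. MYOCD differed by −0.13 (SE 0.318, 95% interval −0.84 to 0.58, adjusted p = 0.761), its libraries overlapped, and it was not called. Its ZT12 mean was 0.147 on the log2(TPM + 1) scale, so a fall past the fold threshold was not possible at this step. The mean TPM of MYOCD was 7.19-fold lower, between levels near 0.

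From ZT0 to ZT20, the span of both steps, CLDN5 fell by 2.92 (SE 0.325, 95% interval −3.65 to −2.20, adjusted p = 3.66e-05), and its mean TPM was 9.86-fold lower. MYOCD fell by 1.04 (SE 0.318, 95% interval −1.75 to −0.33, adjusted p = 0.0194), just past the fold threshold. In this comparison 16.6% of all mRNAs were called lower and 39.0% had all ZT20 libraries below all ZT0 libraries, as both genes had. The share of mRNAs with a lower fold change was 2.09% for CLDN5 and 16.2% for MYOCD. The MYOCD call was lost by the fold threshold alone under 3 alternatives. These were median ratio scaling (−0.93, adjusted p = 0.0218), quantile normalization (−0.95, adjusted p = 0.0148) and the GC covariate (−0.99, adjusted p = 0.0437). It was lost by the adjusted p without ZT20 replicate 3 (adjusted p = 0.0540). Without ZT0 replicate 3 the difference was −0.56 (adjusted p = 0.00493). The other ZT0 libraries lay at 0.676 and 0.497 on the log2(TPM + 1) scale, so that fit could not give a fall above 1. The CLDN5 call held in all 19 alternatives for this comparison and in all 19 for the step from ZT12 to ZT20. Of these, dropping the fold threshold could not end a call, and several others changed only the p.

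**Figure D3:**
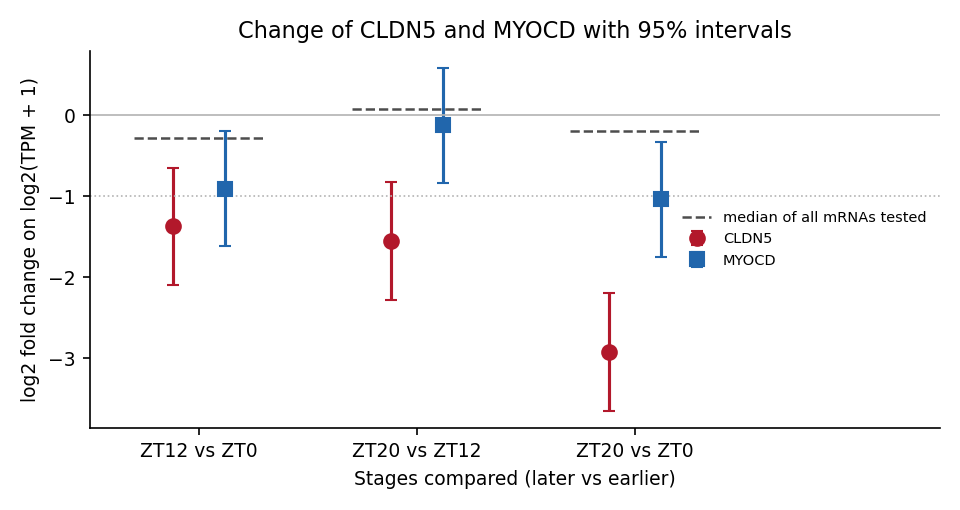
Log2 fold change of CLDN5 (circles) and MYOCD (squares) on the log2(TPM + 1) scale for each pair of stages, later against earlier, with 95% intervals from limma; dashed lines are the median of all mRNAs tested and the dotted line is the fold threshold of −1. CLDN5 lies below −1 in each comparison, at −1.37, −1.55 and −2.92, and the interval of MYOCD includes 0 only for ZT20 against ZT12.

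ZT0 replicate 3 was the library with the most of both mRNAs, and it stood apart more widely. Of all mRNAs tested, 25.1% had their highest value of the 9 libraries there, against 2.85% to 14.8% in each other library. Its median ratio to the average library was 1.21, against 1.12 and 1.14 in the other ZT0 libraries. After division by these ratios CLDN5 stood at 37.9, 21.4 and 61.7 TPM at ZT0 and MYOCD at 0.536, 0.359 and 2.48 TPM, so replicate 3 remained the highest for both. On this scale CLDN5 stood at 14.8, 15.5 and 23.1 TPM at ZT12, so that ZT12 replicate 3 lay above ZT0 replicate 2 and the levels of CLDN5 at these stages overlapped. At ZT0 the spread of CLDN5 on the log2 scale (SD 0.78) was wider than that of 97.6% of mRNAs, and that of MYOCD (SD 0.82) was wider than that of 97.9%. Without this library the CLDN5 difference was −0.98 for ZT12 against ZT0 and −2.53 for ZT20 against ZT0, and that of MYOCD −0.44 and −0.56.

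The 2 genes put the same 4 libraries first, in the same order. ZT0 replicate 3 came first for both, then ZT0 replicate 1, ZT0 replicate 2 and ZT12 replicate 3. All lower places differed, with ZT12 replicate 2 in place 5 for CLDN5 and in place 8 for MYOCD. Pearson's r between them on log2(TPM + 1) was 0.831 over the 9 libraries and 0.874 over the 8 without ZT0 replicate 3, given as a description, since the libraries share their stages. Among 1660 mRNAs with a symbol and a mean of at least 1 TPM, the median r with CLDN5 was 0.331. Of these, 105 (6.33%) had an r above 0.9, so these genes were more like CLDN5 than MYOCD was. With MYOCD, 8 of 1661 such mRNAs (0.482%) had an r above 0.9, and the median r was 0.335. The log2 ratio of CLDN5 to MYOCD within a library, with 1 TPM added to each, had a ZT0 mean of 4.39 ± 0.321 (SD, n = 3). The ZT12 mean was 3.93 ± 0.191 (SD, n = 3), and the ZT20 mean was 2.50 ± 0.148 (SD, n = 3). Each difference, −0.46, −1.43 and −1.89, gave p = 0.1 in a two-sided exact permutation test (adjusted over the 3 pairs, p = 0.1), the smallest that 3 against 3 libraries allow. With 0.1 TPM added, the differences were 0.97 for ZT12 against ZT0, −0.93 for ZT20 against ZT12 and 0.03 for ZT20 against ZT0. The direction of the first and the last thus depends on how the near-zero levels of MYOCD are treated. The second is not free of this either: with nothing added, mean TPM from ZT12 to ZT20 was 7.19-fold lower for MYOCD and 3.36-fold lower for CLDN5. With 1 TPM added, the ratio mostly follows CLDN5, since MYOCD lay below 1 TPM in most libraries.

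Other genes of vessel cells could be followed only where the rows of the transcript table used here pair an identifier with their symbol. This held for 24 of the 179 genes in the lists. These rows pair 1823 of the 12479 mRNAs with a symbol, so a gene left unpaired may still be among the other mRNAs. Beside the shares called lower given above, 0.537% of all mRNAs were called higher from ZT0 to ZT12, 16.0% from ZT12 to ZT20 and 11.6% from ZT0 to ZT20. Of 35 endothelial genes 3 were paired: CLDN5, S1PR1 and CALCRL. The defining endothelial genes PECAM1, CDH5, KDR, TEK and VWF were not among them and were not analysed here. The same holds for ACTA2, MYH11, TAGLN and CNN1 of smooth muscle and for all 15 genes of the theca and stroma list. The name vascular markers could therefore not be checked against the other genes that define these cells.

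S1PR1, a receptor for sphingosine-1-phosphate that stabilizes endothelial junctions in the mouse, was not called at the first step (−0.03, adjusted p = 0.920), where CLDN5 was. Its levels were 16.9, 15.6 and 15.8 TPM at ZT0 and 20.4, 12.3 and 15.3 TPM at ZT12, which overlap. At ZT20 they were 2.88, 2.91 and 1.97 TPM, a fall of 2.23 from ZT12 (adjusted p = 7.73e-06). CALCRL, which with a partner protein forms the receptors for adrenomedullin and CGRP, lay between 0.425 and 2.23 TPM in all libraries, and its difference of 0.59 between ZT20 and ZT0 did not pass (adjusted p = 0.0710). Between ZT20 and ZT0, 2 of the 3 endothelial genes, CLDN5 and S1PR1, were thus called lower, with a list median of −2.26 beside −0.19 over all mRNAs. Without CLDN5 itself, 1 of 2 genes was called lower and the median was −0.84. The summed level of the 3 genes was 41.1 to 90.7 TPM at ZT0, 28.3 to 36.9 TPM at ZT12 and 7.85 to 10.2 TPM at ZT20, most of it from CLDN5 at ZT0.

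Of 26 genes of smooth muscle and pericytes 4 were paired. All 4 had lower means at ZT12 than at ZT0, where the median mRNA differed by −0.28. From ZT0 to ZT20 they did not share a direction. KCNMB1, the smooth muscle subunit of the large-conductance potassium channel, had 2.23, 1.33 and 2.91 TPM at ZT0 and 0.350, 0.386 and 0.0724 TPM at ZT12, a fall of 1.29 (adjusted p = 0.0147). At ZT20 it had 0.266, 0.422 and 1.12 TPM, a difference of −0.98 from ZT0 (adjusted p = 0.00605), within the fold threshold. LDB3, a protein of the Z-disc in striated muscle, went the other way at ZT20. Its level was 0.818 to 2.62 TPM at ZT0 and ZT12 and 8.10, 9.41 and 9.93 TPM at ZT20, a rise of 2.16 from ZT12 (adjusted p = 4.32e-05). TPM1, a tropomyosin found in muscle and other cells, lay between 2.62 and 5.94 TPM and differed by −0.48 between ZT20 and ZT0 (adjusted p = 0.140). Between ZT20 and ZT0, LDB3 was called higher and MYOCD lower, with a list median of −0.73, or −0.48 over the 3 genes without MYOCD. The summed level of the 4 genes was 5.80 to 14.0 TPM at ZT0, 4.02 to 7.57 TPM at ZT12 and 11.5 to 13.8 TPM at ZT20. The last was mostly LDB3, and without LDB3 the mean sums were 8.18, 4.14 and 3.53 TPM at ZT0, ZT12 and ZT20.

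Among 22 genes of the myocardin and SRF program, 4 were paired: MYOCD, VCL, CSRP1 and TPM1. VCL encodes vinculin, which ties actin to adhesion sites, and CSRP1 encodes a LIM protein of the actin cytoskeleton that is abundant in smooth muscle. Both are also made outside muscle, and both were far more abundant than MYOCD. VCL had 31.8, 26.4 and 45.1 TPM at ZT0, 27.0, 25.5 and 29.0 TPM at ZT12 and 5.54, 6.76 and 3.50 TPM at ZT20, a fall of 2.20 from ZT12 to ZT20 (adjusted p = 2.72e-05). CSRP1 fell by 1.38 at that step (adjusted p = 4.48e-05), from between 37.7 and 51.6 TPM to between 13.8 and 19.2 TPM. MYOCD was not called at that step (−0.13), having lain at or below 0.167 TPM already at ZT12, too low for a fall past the fold threshold. Between ZT20 and ZT0, 3 of the 4 genes were called lower, with a list median of −1.51, and TPM1 was not called. Without MYOCD, 2 of 3 genes were called lower and the median was −1.98. Among the ZT0 libraries VCL, CSRP1 and MYOCD were highest in replicate 3, as were 46.8% of all mRNAs, and TPM1 was highest in replicate 1.

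The paired tight junction genes had no common direction. Of 33 listed, 5 were paired, CLDN5 being the only claudin among them. JAM3, a junctional adhesion molecule, lay between 16.7 and 31.2 TPM at ZT0 and ZT12 and had 80.3, 91.8 and 86.9 TPM at ZT20, a rise of 2.15 from ZT12 (adjusted p = 9.29e-07). CGNL1, or paracingulin, which links junctions to the cytoskeleton, rose by 1.54 from ZT0 to ZT20 (adjusted p = 4.71e-04), from between 4.19 and 5.53 TPM to between 14.0 and 18.1 TPM. TJP3, the scaffold protein ZO-3, fell by 1.02 from ZT0 to ZT12 (adjusted p = 0.0218), as CLDN5 did. It then rose by 1.21 to ZT20 (adjusted p = 0.00120), where CLDN5 fell. PARD6A, a cell polarity protein, lay between 0.644 and 4.61 TPM and differed by −0.70 between ZT20 and ZT0 (adjusted p = 0.101). The first call of TJP3 was lost when the libraries were rescaled by their median ratio or by quantiles, with the direction kept. Between ZT20 and ZT0, 2 of the 5 genes were called higher and CLDN5 alone was called lower, with a list median of 0.19. Without CLDN5 the median of the other 4 genes was 0.87. Summed levels were 62.2 to 123 TPM at ZT0, 46.2 to 48.3 TPM at ZT12 and 107 to 121 TPM at ZT20.

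Markers of granulosa cells and of blood cells were read beside these. NR5A1 and NR5A2, nuclear receptors of steroid-producing cells, and STAR, which carries cholesterol into mitochondria, stood for granulosa cells, with summed levels of 1832 to 2822 TPM at ZT0, 1936 to 2213 TPM at ZT12 and 10587 to 16539 TPM at ZT20. They had no common direction: NR5A1 (−2.06) and NR5A2 (−3.31) fell from ZT12 to ZT20, while STAR rose by 3.13. Most of the sum was STAR, and without STAR the mean sums were 752, 511 and 75.5 TPM at ZT0, ZT12 and ZT20. Of 20 blood cell genes 3 were paired: PTPRC, a surface protein of leukocytes, CD74, a chaperone of antigen-presenting cells, and BTK, a kinase of B cells and myeloid cells. PTPRC was between 0.184 and 0.753 TPM and BTK between 0.149 and 0.878 TPM in all libraries. CD74, at 136 TPM in ZT12 replicate 1 and between 17.9 and 31.2 TPM at ZT20, fell by 1.24 from ZT12 to ZT20 (adjusted p = 0.0366). The summed level of the 3 genes was 33.8 to 56.2 TPM at ZT0, 35.0 to 137 TPM at ZT12 and 19.4 to 32.3 TPM at ZT20. In ZT12 replicate 1, where CD74 was highest, S1PR1 (20.4 TPM) and CALCRL (2.20 TPM) were also the highest of their stage. CLDN5 (14.2 TPM) was the lowest of its stage there, close to replicate 2 (14.6 TPM). This is 1 library, picked for its CD74 level. The part of other cell types in the change of CLDN5 and MYOCD was not tested.

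Signals that act on vessel growth were read from 5 paired genes of 29 listed. PDGFA, a growth factor ligand for cells of the vessel wall and stroma, had 37.4, 33.6 and 50.2 TPM at ZT0, 11.4 ± 0.424 TPM (SD, n = 3) at ZT12 and 155, 84.1 and 97.9 TPM at ZT20. It fell by 1.71 at the first step (adjusted p = 0.00535), as CLDN5 did, and rose by 3.14 at the second (adjusted p = 1.53e-06). ANGPTL4, a secreted inhibitor of lipoprotein lipase that also acts on endothelium, fell by 1.40 (adjusted p = 0.0319) and then rose at ZT20, to between 37.0 and 60.2 TPM (adjusted p = 9.72e-04); the first of these calls was lost under both rescalings. SERPINF1, a secreted inhibitor of vessel growth, rose at both steps, by 1.72 and 1.46, against the direction of CLDN5. EDN2, a vasoconstrictor peptide, reached 9.73 TPM in ZT12 replicate 2 and 0.246 to 2.30 TPM elsewhere, and fell by 1.73 from ZT12 to ZT20 (adjusted p = 0.00723). NOTCH1, a receptor that patterns sprouting vessels, stayed at or below 0.870 TPM and differed by −0.52 between ZT20 and ZT0 (adjusted p = 0.0110), within the fold threshold. Between ZT20 and ZT0, 2 of the 5 genes, PDGFA and SERPINF1, were called higher, with a list median of 0.60.

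**Figure D4:**
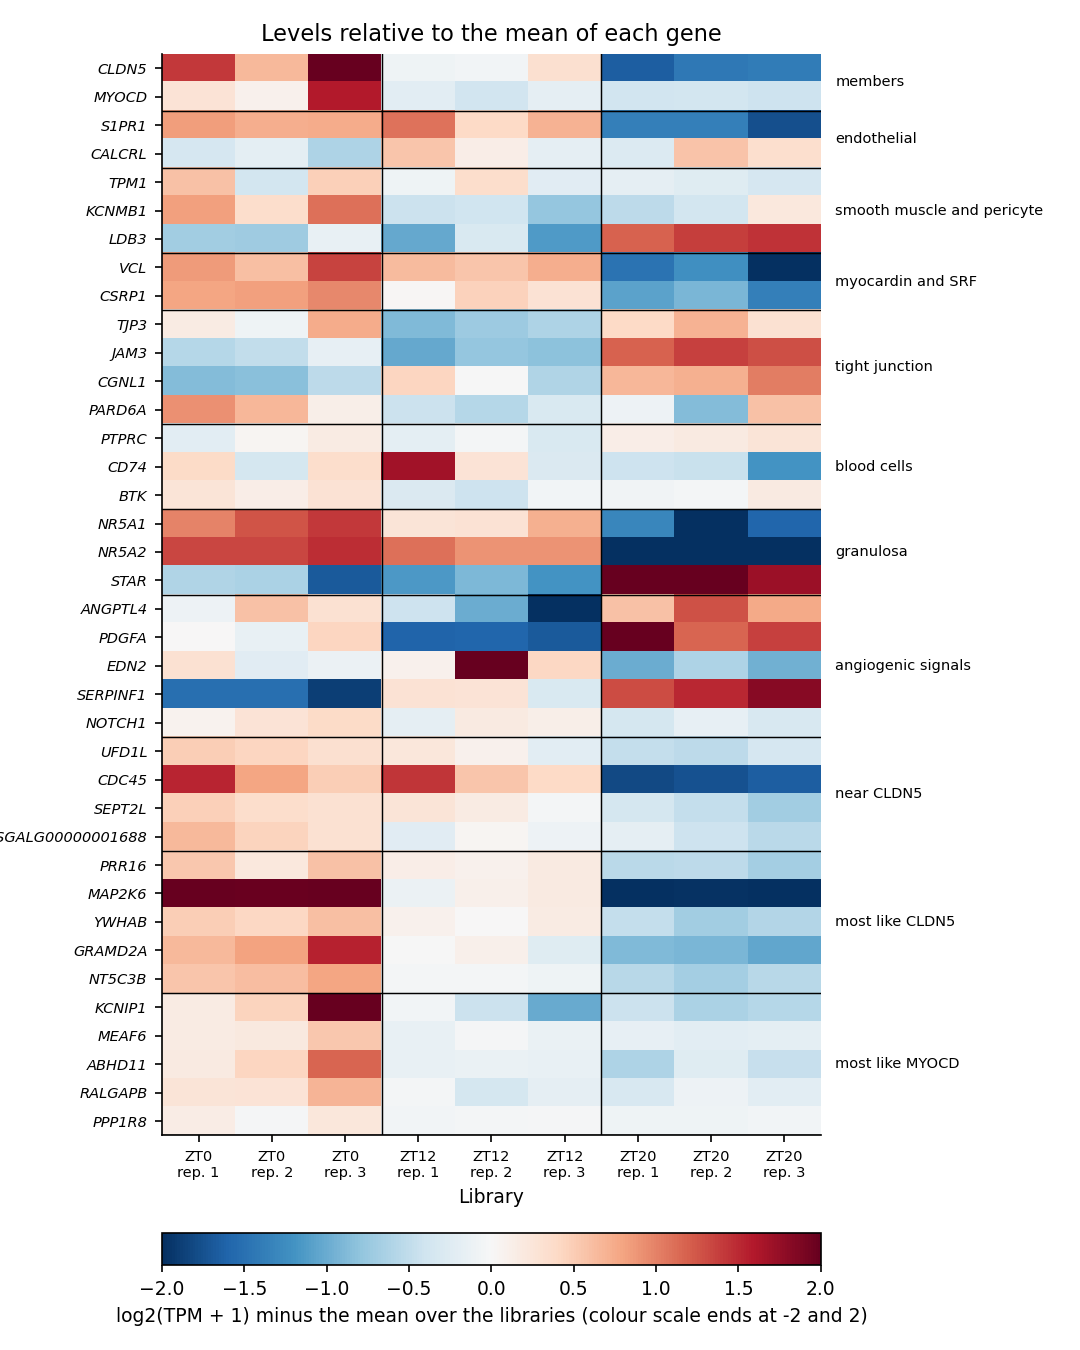
Level of each named gene on log2(TPM + 1) minus the gene's own mean over the 9 libraries, in the order ZT0, ZT12, ZT20, with red above and blue below the mean and colours saturating at −2 and 2. Rows are grouped by the gene lists, the genes near CLDN5 and the genes most like each member, which were picked for their likeness. CLDN5 goes from red to blue over the stages, while JAM3, LDB3 and SERPINF1 are red at ZT20.

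Near CLDN5, 4 mRNAs lie within 100 kb in the rows of the transcript table used here, and none overlaps it. These rows give positions for 1998 of the 12479 mRNAs and 1220 of the 7528 lncRNAs. Other transcripts may therefore lie near or over CLDN5. SEPT2L, a septin-like gene, begins 8.13 kb away. It had 145 to 163 TPM at ZT0 and 71.8 to 91.1 TPM at ZT20, a difference of −0.89 (adjusted p = 2.57e-04) that did not reach the fold threshold. CDC45, a protein of the replicative helicase, lies 16.6 kb away and was not called at the first step (−0.13, adjusted p = 0.787). It then fell by 2.53 at the second (adjusted p = 7.73e-05), from between 6.30 and 14.0 TPM to between 0.586 and 0.755 TPM. UFD1L, a cofactor in the disposal of ubiquitinated proteins, lies 29.7 kb away and differed by −0.85 between ZT20 and ZT0 (adjusted p = 4.46e-04). ENSGALG00000001688, which the table pairs with no symbol, lies 64.4 kb away, and its levels went from between 14.8 and 18.9 TPM at ZT0 to between 7.77 and 10.3 TPM at ZT20 (−0.84, adjusted p = 0.00154). All 4 neighbours had lower means at ZT20 than at ZT0, and of the 4 CDC45 alone was past the fold threshold. Between these stages the median mRNA differed by −0.19, and 16.6% of all mRNAs were called lower. All ZT20 libraries lay below all ZT0 libraries for 39.0% of mRNAs.

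Near MYOCD the same rows hold 1 transcript within 100 kb, the lncRNA G5719, 61.1 kb away and not overlapping it. As these rows place only part of the transcripts, others may lie closer. Read as log2(TPM + 2), which was inferred from the values, G5719 had 6.32, 11.7 and 10.5 TPM at ZT0, 4.91 ± 0.959 TPM (SD, n = 3) at ZT12 and 8.69, 12.1 and 10.9 TPM at ZT20. Another reading of that table would multiply all of these by one factor and leave their order as it is. G5719 was thus lowest at ZT12 and high again at ZT20, where MYOCD was lowest. No test of it was run.

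The mRNAs whose levels most resembled CLDN5 over the 9 libraries were, among 1660 with a symbol and a mean of at least 1 TPM, PRR16 (Pearson's r = 0.966), MAP2K6 (r = 0.965), YWHAB (r = 0.962), GRAMD2A (r = 0.959) and NT5C3B (r = 0.955). These values describe a shared course over the stages, and 105 genes, 6.33% of those ranked, had an r above 0.9. MAP2K6, a kinase that activates p38, had the steepest course, from 33.1, 32.4 and 44.2 TPM at ZT0 to 6.80, 8.11 and 8.60 TPM at ZT12 and 0.884, 1.15 and 0.560 TPM at ZT20. YWHAB, a 14-3-3 adaptor protein, had a shallow one, from between 257 and 294 TPM at ZT0 to between 118 and 137 TPM at ZT20. Without ZT0 replicate 3 the 5 values of r were 0.931 to 0.976.

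For MYOCD the 5 most similar of 1661 mRNAs were KCNIP1 (r = 0.952), MEAF6 (r = 0.935), ABHD11 (r = 0.933), RALGAPB (r = 0.924) and PPP1R8 (r = 0.912), and 8 genes had an r above 0.9. KCNIP1, which binds voltage-gated potassium channels, had 117 TPM in ZT0 replicate 3 against 21.9 and 26.8 TPM in the other ZT0 libraries and 9.18 to 18.7 TPM later. Without that library its r with MYOCD was 0.699, and the r of the other 4 was 0.828 to 0.909. The likeness of KCNIP1 to MYOCD thus rested in large part on this 1 library. PPP1R8, a regulator of protein phosphatase 1, moved little, from between 23.9 and 28.7 TPM at ZT0 to between 22.9 and 23.4 TPM at ZT20.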

How the data were processed

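RNA of F1 granulosa cells from 9 hens (3 per stage) was analysed from the tables the authors deposited. The authors depleted ribosomal RNA, aligned paired-end reads with STAR 2.6.0c to Gallus_gallus 6.0, assembled transcripts with Cufflinks (2.2.1 in the submitters' processing notes; the study's methods name another version) and TACO, and quantified TPM with Kallisto. The deposited log2 values were read as log2(TPM + 1) for mRNAs and as log2(TPM + 2) for lncRNAs, the latter from a minimum of exactly 1, and turned back into TPM. TPM keeps no counts, so the reads behind a value are unknown, although the study lists the raw reads of each library. The number of libraries limits the precision, and counting error has no interval here. The authors' own test, DESeq2, needs counts and was not run.

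limma 3.58.1 (R 4.3.3) was fitted on log2(TPM + 1) with a mean-variance trend to all 9 libraries, with 3 stage means and 6 residual degrees of freedom, and p-values were adjusted over 12472 mRNAs above 0.1 TPM in at least 1 library. The fit was tested on simulated data. For ratios an exact permutation test was used (pandas 2.3.3 and numpy 2.4.6 under Python 3.11.15). Symbols and positions came from the rows of the study's transcript table used here. These rows pair 1823 mRNAs with a symbol and give positions for 1998 mRNAs and 1220 lncRNAs. Named were the members, every paired gene of 8 marker lists, transcripts within 100 kb and the 5 mRNAs most correlated with each member. The members and lists were chosen with earlier results of these data known. Alternatives changed the pseudocount, filter, scaling, variance model, libraries fitted, replicate block, GC covariate and fold threshold, and left out each library.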

Additional observations from a re-analysis of the deposited data

How the results depend on the processing

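CLDN5 kept its direction in all 3 comparisons under each of 19 alternatives, and MYOCD under each of 18 (with at least 1 TPM required in 3 libraries it was not in the fit). Changes of filter, variance model, replicate block or fold threshold, and of libraries outside the compared stages, left the difference itself unchanged. They could therefore not turn its direction. The call of CLDN5 for ZT12 against ZT0 was lost in 8, the first 4 being median ratio scaling (−1.04), quantile normalization (−1.08), only the compared stages (−1.37) and the GC covariate (−1.45). The study's GC content of the reads did not overlap between ZT0 and ZT12, so it cannot be told apart from the stage there. MYOCD for ZT20 against ZT0 was lost under median ratio (−0.93), quantile (−0.95) and GC (−0.99), each by the fold threshold alone. With 0.1 TPM added MYOCD was called also for ZT12 against ZT0 (−2.39, adjusted p = 0.0360, range over its alternatives 0.0360 to 0.414). The causes were not tested.

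Leaving out 1 library gave −1.76 to −0.98 (ZT12 against ZT0), −1.63 to −1.42 (ZT20 against ZT12) and −3.31 to −2.53 (ZT20 against ZT0) for CLDN5, and −1.19 to −0.44, −0.19 to −0.09 and −1.32 to −0.56 for MYOCD. ZT0 replicate 3 and ZT20 replicate 3 each ended the last call of MYOCD when left out, the former by the fold threshold and the latter by the adjusted p.

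The number of mRNAs called for ZT12 against ZT0, 481, was 785 with 0.1 TPM added, 203 under median ratio scaling, 215 under quantile normalization, 4 with the GC covariate, 2089 with no fold threshold, and 196 to 699 without 1 library (196 without ZT0 replicate 3, 222 without ZT12 replicate 2, 282 without ZT12 replicate 3). Of the 481, 67 were higher and 414 lower, against 101 and 102 after median ratio scaling and 115 and 100 after quantile normalization. For ZT20 against ZT12 it was 3465 (2001 higher and 1464 lower; 1757 and 1770 after quantile normalization), and for ZT20 against ZT0 3512 (1442 higher and 2070 lower; 1729 and 1564 after median ratio scaling). With no fold threshold these 2 counts were 6638 and 6676, and without 1 library 3427 to 3506 and 3410 to 3657. The log2 ratio of CLDN5 to MYOCD with 0.1 TPM added was 0.97 (ZT12 against ZT0), −0.93 (ZT20 against ZT12) and 0.035 (ZT20 against ZT0). Of the 36 other named genes 7, 16 and 19 were called in the 3 comparisons, against 481, 3465 and 3512 of all 12472 mRNAs tested. Some of the 36 were picked for their correlation with CLDN5 or MYOCD over these same libraries. The counts among the 36 are therefore partly set by that choice and do not measure an excess over all mRNAs. After median ratio scaling 4, 16 and 16 of the called named genes were still called, all in the same direction.

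Replicate numbers did not pair the hens: deviations of libraries of the same number correlated at −0.187 to 0.0784, and 1 of 9 libraries correlated best with its own number. With the replicate number as a block, 388, 3466 and 3512 mRNAs were called, and no call of CLDN5 (adjusted p = 0.0357, 0.00175 and 4.87e-05) or MYOCD (adjusted p = 0.0759, 0.739 and 0.0163) changed.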
